A study of Mus musculus with 38 samples.

Results

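RNA of the colon was compared between F-coded Apc libraries on black rice and F-coded WT libraries, which asks what differed from WT in the Apc mice that ate black rice. The members were the 6 libraries whose titles and count columns carry these codes, 3 on black rice and 3 WT, out of 38 libraries in the series and 18 in its Apc set. Black rice F libraries came from Apc mice labelled with the black rice treatment. Control F libraries, 3 in all, came from Apc mice labelled with the control treatment and are set beside the comparison. WT F libraries came from mice labelled WT, to which the labels give no treatment, so genotype and diet cannot be told apart in the comparison. The labels name no Apc allele, strain or age, give the tissue as intestinal tract, and do not say that replicates came from separate animals. The p-values below therefore measure only the spread between these libraries. The letters F and M of the titles are the sex code, and all 18 libraries of the Apc set, F and M, entered the fit and its shared estimate of the spread. The levels of black rice M and WT M libraries, 3 each, are given only with the test of a difference between the sex codes.

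APC is a scaffold of the complex that marks beta-catenin for destruction, and its loss switches on Wnt target genes in the intestinal epithelium. The colon wall joins that epithelium to a lamina propria rich in plasma cells, which make the IgA that epithelial cells carry into the lumen. It also holds lymphoid follicles with germinal centres, resident macrophages, fibroblasts, vessels, smooth muscle and enteric neurons, so a bulk library mixes the RNA of all of them. In such a mixture fewer cells of a type and less RNA per cell cannot be told apart.

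Depth was 49.2 to 51.6 M counted reads in black rice F libraries, 44.8 to 54.7 M in control F libraries and 48 to 58.7 M in WT F libraries. Levels are CPM, read counts divided by the scaled size of their library. The sex code was matched by Xist, a non-coding RNA of X inactivation, at 1640 to 2070 CPM in black rice F libraries and 1130 to 1650 CPM in WT F libraries, with Y-linked genes summing to at most 0.0414 CPM. Epithelial, smooth muscle and neuronal markers were present in every F library. Black rice F replicate 3 stood apart from the other 2 black rice F libraries. Across genes, replicates 1 and 2 had a Spearman rho of 0.981 with each other, and 0.962 and 0.967 with replicate 3. On the first principal component of the 9 F libraries, 42.5% of the variance, black rice F libraries lay at -31.27, -28.73 and 34.47, and WT F libraries at 2.71, 35.13 and -6.48. Homeobox genes that pattern the gut axis also varied widely within both groups. Hoxb6 measured 51.1, 91.4 and 3.08 CPM in black rice F libraries and 38.8, 2.55 and 75.2 CPM in WT F libraries. Cdx2, the caudal homeobox factor of intestinal epithelium, measured 124, 101 and 8.47 CPM in black rice F libraries and 87.4, 37.7 and 98.8 CPM in WT F libraries. Hoxd13, a gene of the terminal gut, measured 0.156, 40.8 and 128 CPM in black rice F libraries and 11.2, 38.7 and 13.9 CPM in WT F libraries. All 3 ranges overlapped, and black rice F replicate 3 and WT F replicate 2 had the lowest Hoxb6 and Cdx2 of their groups. Hoxd13 was lowest in replicate 1 and highest in replicate 3 of the black rice group. The part of this spread in the results below was not tested.

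No gene passed the threshold. The edgeR quasi-likelihood test, with an adjusted p under 0.05 as the call, gave 0 of 21624 genes (0%), and the smallest adjusted p was 0.75. At an unadjusted p under 0.05 it counted 1411 genes, 649 higher (3% of genes tested) and 762 lower (3.52%) in black rice F libraries. DESeq2 called 42 genes, 10 higher and 32 lower, and limma-voom called 0. In 1454 genes (6.72%) all black rice F libraries lay above all WT F libraries, and in 1674 genes (7.74%) all lay below. The log2 fold change was at least 1 in size in 1378 genes, and its median over all genes was 0.004. The accounts below are therefore descriptions of levels, ordered by cell type and pathway, in which every gene tested has an edgeR adjusted p of 0.75 or more.

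**Figure D1:**
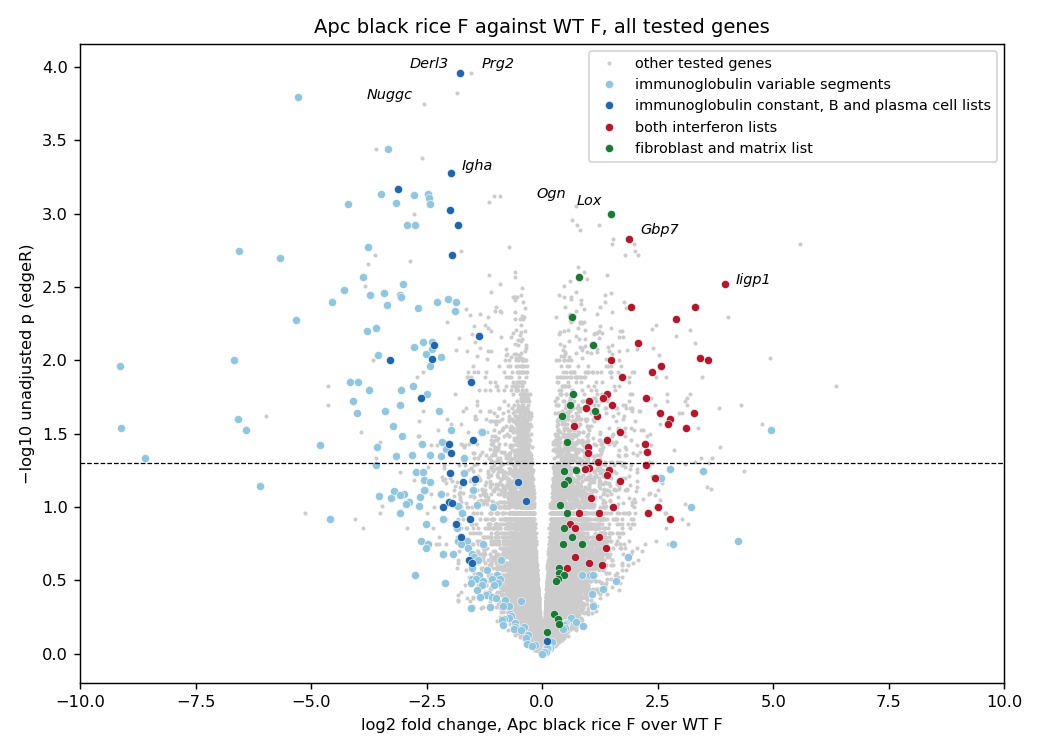
Log2 fold change of black rice F over WT F libraries (x axis) against −log10 of the unadjusted edgeR p (y axis) for the 21624 genes tested. The dashed line marks the unadjusted threshold of 0.05. Most immunoglobulin and B cell transcripts lie to the left of 0, the interferon and matrix lists to the right, and none passed the adjusted threshold.

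The antibody transcripts were lower in black rice F libraries. Igha (ENSMUSG00000095079), which encodes the IgA heavy chain constant region, measured 541, 340 and 356 CPM in black rice F libraries, against 2330, 1820 and 712 CPM in WT F libraries. All 3 black rice F libraries lay below all 3 WT F libraries, and the lowest WT F library, replicate 3, was nearest to them. The log2 fold change was -1.97 (SE 0.45, edgeR adjusted p = 0.75). Jchain (ENSMUSG00000067149), the joining chain of polymeric IgA, measured 260, 127 and 124 CPM on black rice against 819, 683 and 314 CPM in WT F libraries. Its groups did not overlap either, and its log2 fold change was -1.83 (SE 0.46). Igkc, the kappa light chain constant region, averaged 830 CPM on black rice, between 468 and 1160 CPM, and lay between 1780 and 4600 CPM in WT F libraries. Iglc2, a lambda light chain constant region, measured 6.73, 5.05 and 18.8 CPM on black rice against 35.1, 73.2 and 159 CPM in WT F libraries, a log2 fold change of -3.13 (SE 0.74). Near-identical copies of lambda constant genes can share reads, so the split between them is uncertain. Of the 13 immunoglobulin constant and J chain genes tested, 13 were lower, as were 49.5% of all genes. Of these, 9 had an unadjusted p under 0.05 (3.52% of all genes in this direction), and 10 did not overlap (7.74%). The median log2 fold change of the list was -1.99, beside 0.004 over all genes. Pigr, the epithelial receptor that carries polymeric IgA to the lumen, measured 3010, 3030 and 4220 CPM on black rice against 4350, 5220 and 5120 CPM in WT F libraries, without overlap (log2 fold change -0.52, SE 0.26).

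Variable segments were lower along with the constant regions. Of 96 Ighv segments tested, 80 were lower (49.5% of all genes), 32 of them at an unadjusted edgeR p under 0.05 (3.52% of all genes in this direction), with a median log2 fold change of -2.12. The 92 Igkv segments had 77 lower, 36 of them past that p, and a median of -1.79. Summed over segments, Ighv transcripts reached 196, 103 and 91.6 CPM on black rice and 597, 375 and 138 CPM in WT F libraries. The single most abundant segment took 8.04, 24.1 and 17% of the Ighv sum on black rice and 6.25, 12.9 and 9.84% in WT F libraries, ranges that overlap. Ighv1-72 had the smallest p of all segments and measured 0.429, 0.474 and 0.982 CPM on black rice against 23.7, 48.5 and 1.43 CPM in WT F libraries. Its level in WT F replicate 3 was close to the black rice F libraries. Segments are similar in sequence and their reads can be split between them. The beta chain segments of the T cell receptor, Trbv, had 9 of 15 lower, 0 of them past that p, and a median of -0.18.

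The plasma cell and germinal centre genes named here lay below WT in every black rice F library. Derl3 (ENSMUSG00000009092), an endoplasmic reticulum degradation factor of secretory cells, measured 1.97, 1.49 and 1.35 CPM on black rice against 7.59, 5.26 and 3.77 CPM in WT F libraries. The groups were apart, with a log2 fold change of -1.79 (SE 0.35, edgeR adjusted p = 0.75). Tnfrsf17, the BCMA receptor of plasma cells, measured 0.8, 0.419 and 0.593 CPM on black rice against 1.9, 1.99 and 0.834 CPM in WT F libraries. Mzb1, a chaperone of antibody assembly, averaged 0.405 ± 0.181 CPM on black rice and 1.18 ± 0.47 CPM in WT F libraries, with no overlap. Nuggc, a nuclear GTPase of germinal centre B cells, measured 0.39, 0.31 and 0.389 CPM on black rice against 1.3, 2.44 and 2.78 CPM in WT F libraries (log2 fold change -2.57, SE 0.52). Gcsam, a germinal centre signalling adaptor, measured 0.858, 1.07 and 1.33 CPM on black rice against 2.17, 4.51 and 4.31 CPM in WT F libraries. Pou2af1, the B cell coactivator of octamer-binding factors, measured 5.3, 3.19 and 12.2 CPM on black rice against 19.7, 31.2 and 29.7 CPM in WT F libraries. Neither gene overlapped between the groups. Mef2b, a germinal centre transcription factor, lay at 0.0729 to 0.176 CPM on black rice and at 0.44 to 2.66 CPM in WT F libraries.

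Pan-B cell genes behaved differently in replicate 3. Ms4a1, which encodes CD20, measured 1.33, 1.09 and 23.3 CPM on black rice against 18.4, 33.8 and 48.2 CPM in WT F libraries. Black rice F replicates 1 and 2 lay below every WT F library and replicate 3 lay within their range. Ighm, the IgM heavy chain, showed the same overlap, with 27.3, 23.2 and 91.8 CPM on black rice against 82.9, 151 and 170 CPM in WT F libraries. Of 16 B and plasma cell markers 15 were lower (49.5% of all genes), 6 at an unadjusted edgeR p under 0.05 (3.52%), and 6 did not overlap (7.74%). The median log2 fold change was -1.69, and -3.74 without black rice F replicate 3, when 14 of 16 passed that p. Without replicate 1 or 2 of that group 5 and 3 passed it, with medians of -1.43 and -1.31. Without WT F replicates 1, 2 and 3 in turn the count was 5, 4 and 4. H2-Ob, a chain of the peptide exchange factor H2-O of B cells, and H2-DMb2 followed the same split, at 2.52, 2.81 and 19.2 CPM and at 2.09, 2.62 and 13.5 CPM on black rice. In WT F libraries H2-Ob lay between 16.5 and 37.8 CPM, and H2-DMb2 between 12.5 and 19.3 CPM. Cd74, the invariant chain shared by all class II presenting cells, overlapped, at 264 to 373 CPM on black rice and 320 to 462 CPM in WT F libraries. Of 10 class II presentation genes 9 were lower (49.5% of all genes), with a median log2 fold change of -0.18. Of them 0 had an unadjusted edgeR p under 0.05 (3.52%) and 0 were without overlap (7.74%).

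**Figure D2:**
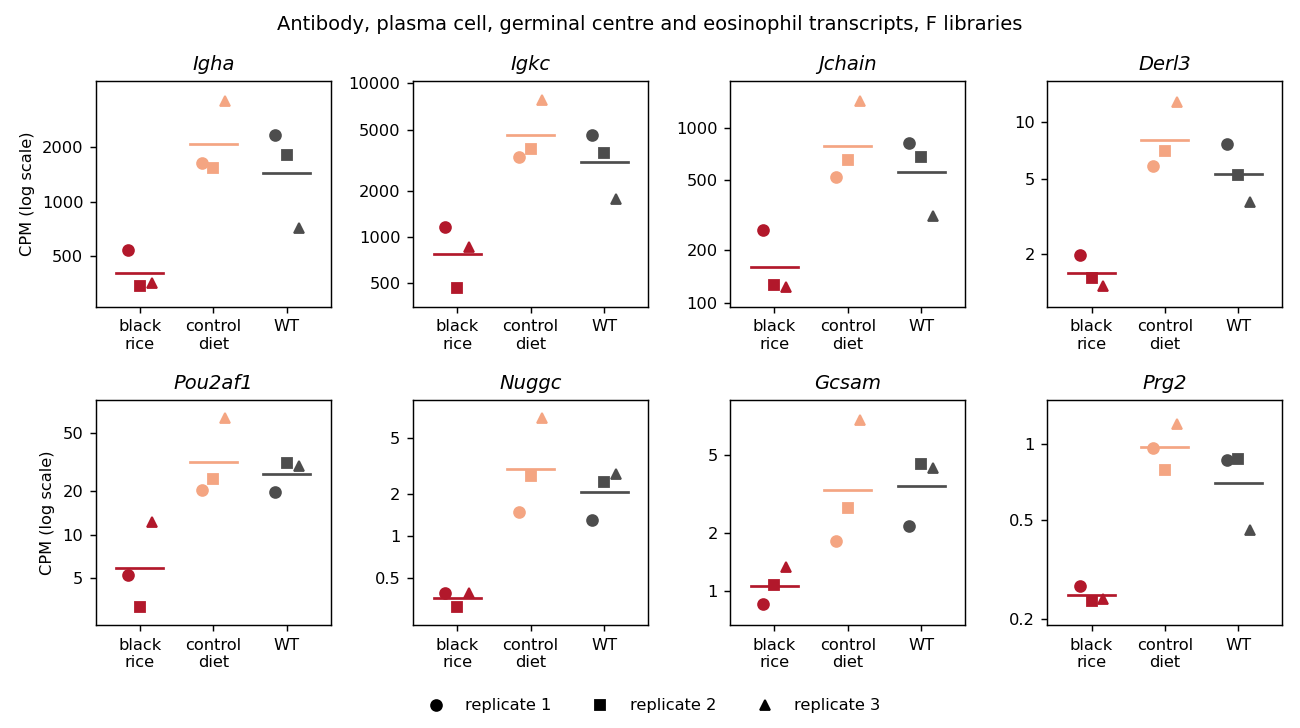
CPM (log scale) of 8 transcripts in each F library, with black rice left, control diet in the middle and WT right, a bar at the geometric mean and 1 symbol per replicate number. For all 8 genes the 3 black rice points lie below the 3 WT points, as Igha does at 340 to 541 CPM against 712 to 2330 CPM.

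The control F libraries did not share the low antibody levels. Igha measured 541, 340 and 356 CPM on black rice against 1630, 1530 and 3590 CPM in control F libraries, and Derl3 lay at 1.35 to 1.97 CPM on black rice against 5.85 to 12.8 CPM in control F libraries. The log2 fold change of black rice F over control F libraries was -2.45 for Igha (SE 0.46, edgeR adjusted p = 0.12) and -2.41 for Derl3 (SE 0.35, edgeR adjusted p = 0.054). For the immunoglobulin constant list the median was -2.38 for black rice over control F and 0.24 for control F over WT F libraries. These contrasts share libraries with each other and with the black rice F against WT F contrast. Of its 13 genes, 10 were lower at an unadjusted p under 0.05 in black rice F against control F libraries, and 0 in control F against WT F libraries. Over all genes edgeR called 0 of 21624 (0%) in each of these contrasts. At that unadjusted p, 976 genes were higher (4.51%) and 1239 lower (5.73%) in black rice F against control F libraries, and 342 were higher (1.58%) and 531 lower (2.46%) in control F against WT F libraries.

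T cell transcripts were less far from WT than the antibody transcripts. The 22 T and NK cell markers had a median log2 fold change of -0.32, and 17 were lower (49.5% of all genes), 4 of them without overlap (7.74%). Of the 22 markers 1 passed an unadjusted edgeR p of 0.05 (3.52%). That gene was Tcf7, the transcription factor TCF1 of naive and memory T cells, with 5.93, 6.72 and 9.14 CPM on black rice against 13.3, 16 and 11.8 CPM in WT F libraries. The groups did not overlap, and the log2 fold change was -0.91 (SE 0.28). Cd2, an adhesion receptor of T and NK cells, lay at 3.77 to 5.28 CPM on black rice and 6.4 to 10.6 CPM in WT F libraries. Summed over the list, T and NK cell markers reached 120, 109 and 63.4 CPM on black rice and 103, 111 and 139 CPM in WT F libraries, so replicate 3 alone lay below WT. For black rice F over control F libraries the list median was -0.92, and 8 of 22 were lower at that p (5.73% of all genes). It was 0.68 for control F over WT F libraries, and these contrasts share libraries.

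Among granulocyte genes, Prg2 (ENSMUSG00000027073), the major basic protein of eosinophil granules, measured 0.273, 0.237 and 0.241 CPM on black rice against 0.863, 0.87 and 0.457 CPM in WT F libraries. The black rice F libraries lay under the lowest WT F library, with a log2 fold change of -1.54 (SE 0.3, edgeR adjusted p = 0.75). The mean log2 CPM of Prg2 was -0.17, below the floor of 0 for genes named by p. At such low counts the closeness of the black rice F values does not show a small spread. Its control F levels were 0.971, 0.787 and 1.21 CPM. Some other eosinophil and mast cell genes lay higher. Ccl11, the eosinophil attractant eotaxin, measured 33.4, 32.9 and 16.4 CPM on black rice against 15.6, 11.7 and 6.3 CPM in WT F libraries, apart by a small gap (log2 fold change 1.3, SE 0.47). On control diet Ccl11 measured 18.3, 22.7 and 24.1 CPM, also above WT. Ear2, an eosinophil-associated ribonuclease with close paralogs, and Tpsb2, a mast cell tryptase, had their highest value in black rice F replicate 2, at 7.29 and 1.2 CPM. In the other black rice F libraries Ear2 lay at 0.917 and 0.871 CPM, within 0.656 to 0.993 CPM of WT F libraries. Of 15 genes of this list tested, 4 were higher (3% of all genes) and 1 was lower (3.52%) at an unadjusted p under 0.05. The median log2 fold change was 1.3. Without black rice F replicate 2 the median was 0.14 and 1 was higher at that p. The count of 4 was 6 without black rice F replicate 3, 1 without WT F replicate 1 or 2, and 2 without WT F replicate 3.

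Several genes of resident macrophages were higher. Cd163, the haemoglobin-haptoglobin scavenger receptor, measured 14.2, 33 and 10.4 CPM on black rice against 10, 4.29 and 3.6 CPM in WT F libraries. Mrc1, the mannose receptor CD206, measured 29.8, 55.3 and 23.9 CPM on black rice against 20.1, 17.2 and 12.8 CPM in WT F libraries. F13a1, the coagulation factor XIII subunit that tissue macrophages express, measured 17.4, 56 and 16.5 CPM on black rice against 9.9, 7.14 and 5.25 CPM in WT F libraries. In all 3 genes replicate 2 was highest and no black rice F library overlapped WT. The log2 fold changes were 1.69 for Cd163 (SE 0.53), 1.12 for Mrc1 (SE 0.36) and 2.01 for F13a1 (SE 0.53). On control diet Mrc1 measured 27.8, 23.4 and 29.2 CPM and F13a1 measured 10.9, 11.1 and 12.5 CPM, also above every WT F library. Cd163, at 6.94 to 8.71 CPM on control diet, overlapped WT. Ccr2, the receptor that brings monocytes into tissue, overlapped, at 7.3 to 29.8 CPM on black rice and 4.62 to 7.47 CPM in WT F libraries. Its control F levels, 17.2, 9.02 and 19 CPM, were all above WT. Cyba, a subunit of the phagocyte oxidase, was lower in every black rice F library, at 19.9 to 30.1 CPM against 32.1 to 46.2 CPM in WT F libraries. The whole list of 17 macrophage and monocyte markers had 9 higher and 8 lower and a median log2 fold change of 0.08, which turned to -0.14 without black rice F replicate 2 and to -0.01 without WT F replicate 3. On black rice 3 were higher (3% of all genes) and 1 lower (3.52%) at an unadjusted edgeR p under 0.05. In control F over WT F libraries, a contrast that shares the WT libraries, 6 were higher at that p (1.58%). The median there was 0.66, and it was -0.45 for black rice F over control F libraries.

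Interferon-responsive genes were high in 2 of 3 black rice F libraries. Interferons act through STAT and IRF factors on the interferon-stimulated response element of their target promoters, and the guanylate-binding and immunity-related GTPases they induce act against intracellular microbes. The promoters of 3 such genes are shown because transcripts of both interferon lists stood high in the same libraries. They are RefSeq windows of build GRCm38.p6, from 250 bases before the start to 50 after it, matched by symbol and printed on the gene's strand. Capitals mark matches of GAAANNGAAA, searched on both strands and here read from the opposite strand as TTTCNNTTTC, with overlapping matches merged.
Gbp7, chr3:142530086-142530385, plus strand: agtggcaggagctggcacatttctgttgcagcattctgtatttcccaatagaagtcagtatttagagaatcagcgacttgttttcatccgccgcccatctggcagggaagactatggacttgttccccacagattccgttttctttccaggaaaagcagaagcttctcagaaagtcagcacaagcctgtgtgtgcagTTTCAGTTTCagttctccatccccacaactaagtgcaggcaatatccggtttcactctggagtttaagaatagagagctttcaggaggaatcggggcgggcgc
Gbp3, chr3:142559794-142560093, plus strand: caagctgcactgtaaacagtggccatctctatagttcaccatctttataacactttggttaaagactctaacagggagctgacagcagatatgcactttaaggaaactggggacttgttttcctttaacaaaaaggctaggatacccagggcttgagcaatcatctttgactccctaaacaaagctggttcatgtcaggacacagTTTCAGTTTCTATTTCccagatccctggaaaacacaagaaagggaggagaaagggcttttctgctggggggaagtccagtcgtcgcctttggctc
Ifit1, chr19:34640639-34640938, plus strand: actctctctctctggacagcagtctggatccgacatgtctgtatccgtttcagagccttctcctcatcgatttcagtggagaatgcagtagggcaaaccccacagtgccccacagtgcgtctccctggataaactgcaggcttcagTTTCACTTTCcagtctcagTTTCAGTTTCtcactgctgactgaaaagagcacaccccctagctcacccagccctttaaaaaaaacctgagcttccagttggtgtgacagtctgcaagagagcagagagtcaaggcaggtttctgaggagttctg
The letters occur in 3.44% of all 32851 promoter windows. Of 30 type I interferon genes 21 had a window, and 14 of their 24 windows held a match. Of 24 genes of the interferon gamma list 16 had a window, and 10 of 18 windows held one. Gbp3 has a second window, with no match.

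Gbp7, a guanylate-binding GTPase, had the smallest p of both interferon lists and measured 69.7, 54.7 and 18.2 CPM on black rice against 15.9, 10.2 and 12.7 CPM in WT F libraries. Every black rice F library lay above WT, replicate 3 by a small margin, and the log2 fold change was 1.88 (SE 0.48, edgeR adjusted p = 0.75). Iigp1, an immunity-related GTPase, measured 311, 185 and 14.9 CPM on black rice against 16.5, 9.65 and 6.75 CPM in WT F libraries, a log2 fold change of 3.95 (SE 1.12). Gbp3 measured 78.8, 49.5 and 12.3 CPM on black rice against 15.8, 11.9 and 9.16 CPM in WT F libraries. For both genes replicates 1 and 2 lay far above WT and replicate 3 lay inside the WT range. Gbp6 had the same form, with 15, 13.5 and 1.19 CPM on black rice and 0.849 to 1.68 CPM in WT F libraries. All 24 genes of this list that were tested were higher, as were 50.4% of all genes. Of these, 17 had an unadjusted p under 0.05 (3% of all genes in this direction), but only 2 had groups without overlap (6.72%). The list median was 1.7. The gene families of this list hold close paralogs, and their reads may be split between copies.

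The type I interferon list had the same shape. Ifit2, an interferon-induced tetratricopeptide protein that restrains viral replication, measured 136, 126 and 10.3 CPM on black rice against 13.4, 8.88 and 5.38 CPM in WT F libraries, a log2 fold change of 3.3 (SE 0.98). Ifi44, an interferon-induced cytoplasmic protein, measured 89.3, 51.4 and 3.65 CPM on black rice against 7.24, 2.8 and 2.03 CPM in WT F libraries. Zbp1, a sensor of Z-form nucleic acid, measured 141, 95.5 and 10.4 CPM on black rice against 22.8, 15.1 and 14.1 CPM in WT F libraries. In Zbp1 replicate 3 lay below all WT F libraries, while replicates 1 and 2 lay above them. Ifi204, a DNA sensor of the interferon-inducible p200 family that is in neither list, measured 29.7, 26.4 and 4.19 CPM on black rice against 6.24, 2.98 and 2.54 CPM in WT F libraries. Ifit1, a relative of Ifit2, reached 263 and 233 CPM in replicates 1 and 2 and 12.5 CPM in replicate 3, against 11.2 to 63 CPM in WT F libraries. Irf9, the DNA-binding subunit of the factor ISGF3, measured 85.6, 86.6 and 44.7 CPM on black rice against 46.4, 35.7 and 30 CPM in WT F libraries. All 30 genes of the list were higher by the group fold change (50.4% of all genes), 15 at an unadjusted edgeR p under 0.05 (3%). In 0 of them were the groups apart (6.72%). Summed over the list, levels were 3890, 2880 and 634 CPM on black rice and 1150, 717 and 705 CPM in WT F libraries, so replicate 3 was the lowest of the 6. Leaving out a library moved the count of 15 widely. It was 27 without black rice F replicate 3, 2 without replicate 1 and 4 without replicate 2 of that group. Without WT F replicates 1, 2 and 3 in turn it was 19, 3 and 2. For the interferon gamma list the count of 17 ran between 9 and 20 over the same fits.

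**Figure D3:**
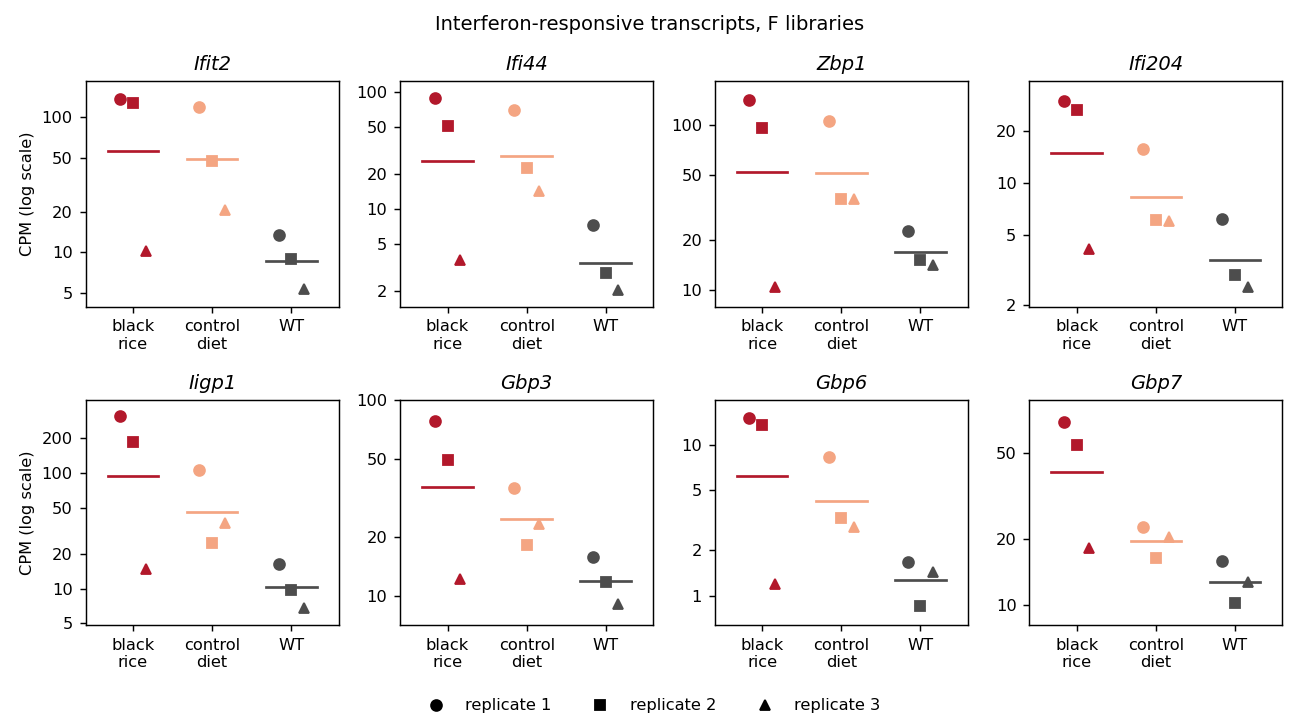
CPM (log scale) of 8 interferon-responsive transcripts in each F library, with black rice left, control diet in the middle and WT right, and a bar at the geometric mean. Black rice F replicates 1 and 2 lie above every WT point in all 8 genes, while replicate 3 clears the WT points only in Gbp7.

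Most of the interferon-responsive transcripts named above also lay above WT F libraries in control F libraries. Ifit2 measured 119, 47.5 and 20.4 CPM and Iigp1 measured 107, 24.9 and 37.3 CPM on control diet, where all 3 libraries lay above the highest WT F library, at 13.4 and 16.5 CPM. All 3 also lay above every WT F library for Gbp7, Gbp3, Gbp6, Ifi44, Zbp1 and Irf9. Gbp7 measured 22.8, 16.4 and 20.5 CPM on control diet, where the highest WT F library held 15.9 CPM. For Zbp1 the control F levels were 106, 35.8 and 35.7 CPM, and the highest WT F level was 22.8 CPM. Ifit1 overlapped, at 222, 63.1 and 36 CPM on control diet against 63, 11.2 and 30.1 CPM in WT F libraries, and so did Ifi204, at 15.7, 6.11 and 6.05 CPM on control diet. In control F over WT F libraries 4 of 30 type I genes and 4 of 24 interferon gamma genes were higher at an unadjusted edgeR p under 0.05, beside 1.58% of all genes. The type I list had a median log2 fold change of 1.43 for black rice F over WT F libraries, 1.26 for control F over WT F libraries and 0.35 for black rice F over control F libraries. For the interferon gamma list these medians were 1.7, 1.08 and 0.49. These contrasts share libraries.

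Transcripts of fibroblasts and of the extracellular matrix were higher in black rice F libraries. Lox (lysyl oxidase), the enzyme that crosslinks collagen and elastin, measured 3.22, 4.66 and 2.78 CPM on black rice against 1.63, 1.06 and 1.13 CPM in WT F libraries. The groups were apart, with a log2 fold change of 1.48 (SE 0.37, edgeR adjusted p = 0.75). Control F libraries held as much Lox, at 5.42, 2.78 and 2.35 CPM. The log2 fold change of Lox in black rice F over control F libraries was 0.01 (SE 0.36). For Ogn, Postn and Dcn that value was 0.55, 0.56 and 0.87. Ogn, the small leucine-rich proteoglycan osteoglycin, measured 254, 219 and 208 CPM on black rice against 155, 121 and 131 CPM in WT F libraries (log2 fold change 0.74, SE 0.18). Postn, the matrix protein periostin, measured 418, 449 and 487 CPM on black rice against 354, 315 and 194 CPM in WT F libraries. Dcn, the collagen-binding proteoglycan decorin, measured 444, 894 and 478 CPM on black rice against 297, 331 and 222 CPM in WT F libraries. Neither of these genes overlapped, and Dcn was highest in replicate 2. Fbn1, the microfibril protein fibrillin-1, lay at 19.5 to 38.1 CPM on black rice and 11.6 to 18.6 CPM in WT F libraries. Efemp1, a fibulin of the matrix, measured 39.7, 68.2 and 49.2 CPM on black rice against 35, 31.9 and 22.5 CPM in WT F libraries. Fndc1, a fibronectin type III domain protein, overlapped, at 14.2 to 43.8 CPM on black rice and 7.05 to 15.6 CPM in WT F libraries. All 28 matrix genes tested were higher (50.4% of all genes), 9 at an unadjusted p under 0.05 (3%), and 7 had groups without overlap (6.72%). The count of 9 was 4 without black rice F replicate 2 or WT F replicate 3, and 14 without WT F replicate 1. The list median was 0.47, between 0.26 without WT F replicate 3 and 0.67 without WT F replicate 1. In control F over WT F libraries, a contrast that shares the WT libraries, it was 0.31. WT F replicate 3 had the lowest summed matrix level of the 6 libraries, 1190 CPM, against 2070 and 1980 CPM in the other WT F libraries and 2460, 3250 and 2600 CPM on black rice.

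**Figure D4:**
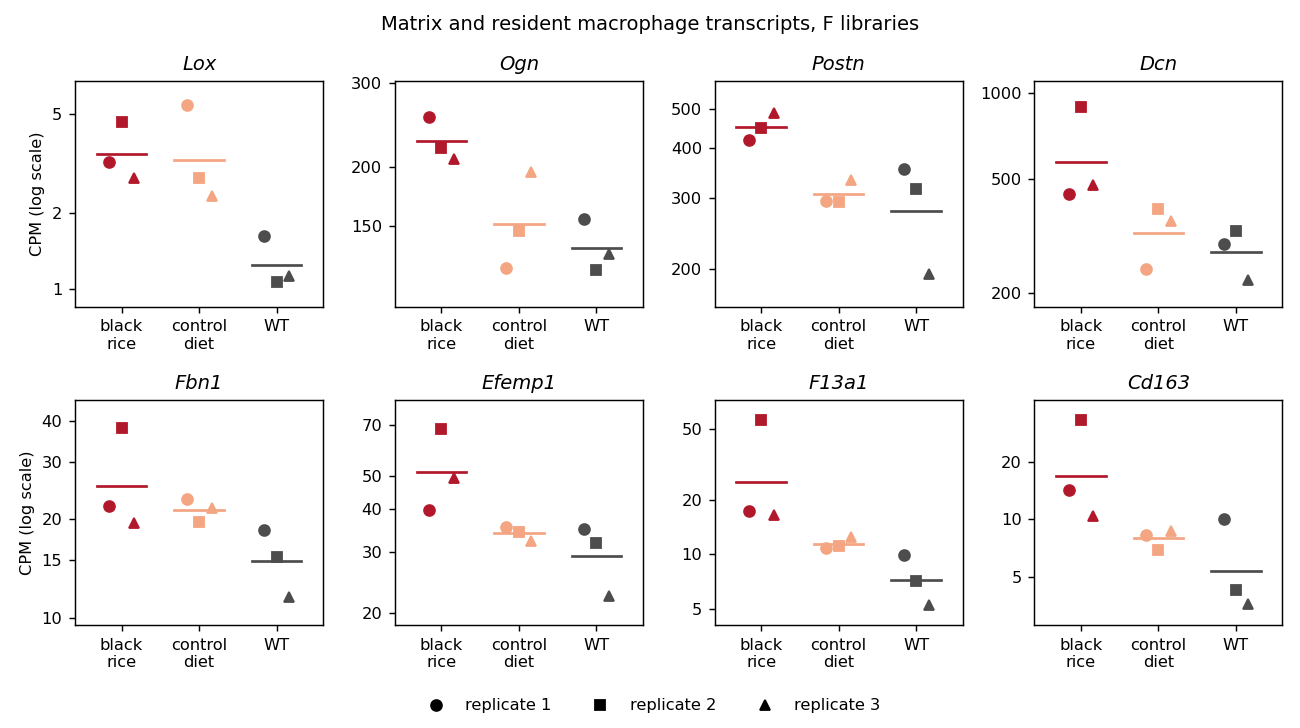
CPM (log scale) of 6 matrix transcripts and 2 macrophage transcripts in each F library, with black rice left, control diet in the middle and WT right, and a bar at the geometric mean. Every black rice point lies above every WT point in these 8 genes, and replicate 2 is the highest black rice library in 6 of them.

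Vessel and red cell genes were highest in black rice F replicate 2. All 16 endothelial and lymphatic markers tested were higher on black rice (50.4% of all genes), with a median log2 fold change of 0.48. In control F over WT F libraries, a contrast that shares the WT libraries, the median was 0.3. On black rice 5 of the 16 had an unadjusted p under 0.05 (3%). That count was 0 without black rice F replicate 2 or without WT F replicate 3. Kdr, the VEGF receptor 2 of endothelium, measured 21.9, 27.4 and 18.2 CPM on black rice against 17.7, 14.2 and 7.69 CPM in WT F libraries. Control F libraries held 25.6, 23.6 and 21.7 CPM of Kdr. Vwf, the von Willebrand factor of endothelium, measured 13.9, 34.9 and 15 CPM on black rice against 17, 8.49 and 6.95 CPM in WT F libraries, with overlap. Alas2, the haem synthesis enzyme of red cell precursors, measured 1.48, 5.06 and 0.778 CPM on black rice against 0.488, 0.373 and 0.397 CPM in WT F libraries. Its control F levels were 3.1, 2.48 and 0.429 CPM. Hbb-bs, an adult beta globin, measured 27.9, 105 and 11.6 CPM on black rice against 11.1, 13.6 and 13.2 CPM in WT F libraries, with replicate 3 inside the WT range. The 9 red cell genes had a median log2 fold change of 1.72, and of 0.78 without black rice F replicate 2. Their median was 1.29 in control F over WT F libraries. Globin copies are near-identical, so their separate values are uncertain. Adipocyte markers summed to 590, 1920 and 187 CPM on black rice and 693, 222 and 960 CPM in WT F libraries, with replicate 2 again the highest. Plin1, the coat protein of fat droplets, measured 4.49, 32.5 and 0.185 CPM on black rice and 8.5, 0.166 and 7.59 CPM in WT F libraries, and the groups overlapped. The part of fat, vessels and blood in the matrix and macrophage values was not tested.

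Liver markers were at low levels. Alb, serum albumin, measured 20.2, 13.1 and 27.6 CPM on black rice against 14.8, 6.17 and 5.82 CPM in WT F libraries, and Ahsg, the plasma protein fetuin-A, lay at 2 to 3.43 CPM on black rice against 0.89 to 1.81 CPM in WT F libraries. Of 11 hepatocyte genes tested, 10 were higher, 4 of them at an unadjusted p under 0.05 (3% of all genes), with a median log2 fold change of 0.74. That count was 7 without black rice F replicate 2 or WT F replicate 1, 2 without black rice F replicate 3, and 1 without WT F replicate 2 or 3. The median was 1.27 without WT F replicate 1. Summed over the list the groups overlapped, at 136, 261 and 178 CPM on black rice and 154, 135 and 194 CPM in WT F libraries.

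Smooth muscle overlapped between the groups and enteric nerve genes were lower. Smooth muscle markers summed to 8300, 5640 and 5330 CPM on black rice and 7460, 6000 and 4960 CPM in WT F libraries, and the median log2 fold change of the 18 genes was 0.1, turning to -0.06 without black rice F replicate 1 and to -0.03 without WT F replicate 3. Casq2, the calsequestrin of muscle calcium stores, was apart from WT, at 10.5, 9.09 and 10.4 CPM on black rice against 6.15, 7.31 and 5.6 CPM in WT F libraries (log2 fold change 0.65, SE 0.16). Prph, the peripheral neuron filament peripherin, measured 19.4, 11.1 and 16.8 CPM on black rice against 26.8, 19.7 and 33.4 CPM in WT F libraries. Uchl1, a neuronal ubiquitin hydrolase, measured 18.8, 9.89 and 14.9 CPM on black rice against 25, 19 and 27.3 CPM in WT F libraries, the groups being apart by a small gap. The 17 neuron and glia markers had a median log2 fold change of -0.48. Of them 16 were lower (49.5% of all genes), 3 at an unadjusted edgeR p under 0.05 (3.52%). That count was 0 without black rice F replicate 2 or WT F replicate 3, 1 without black rice F replicate 3 or WT F replicate 1, 7 without WT F replicate 2 and 8 without black rice F replicate 1. In control F over WT F libraries, a contrast that shares the WT libraries, 11 of the 17 were lower at that p (2.46% of all genes). The median there was -0.86.

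**Figure D5:**
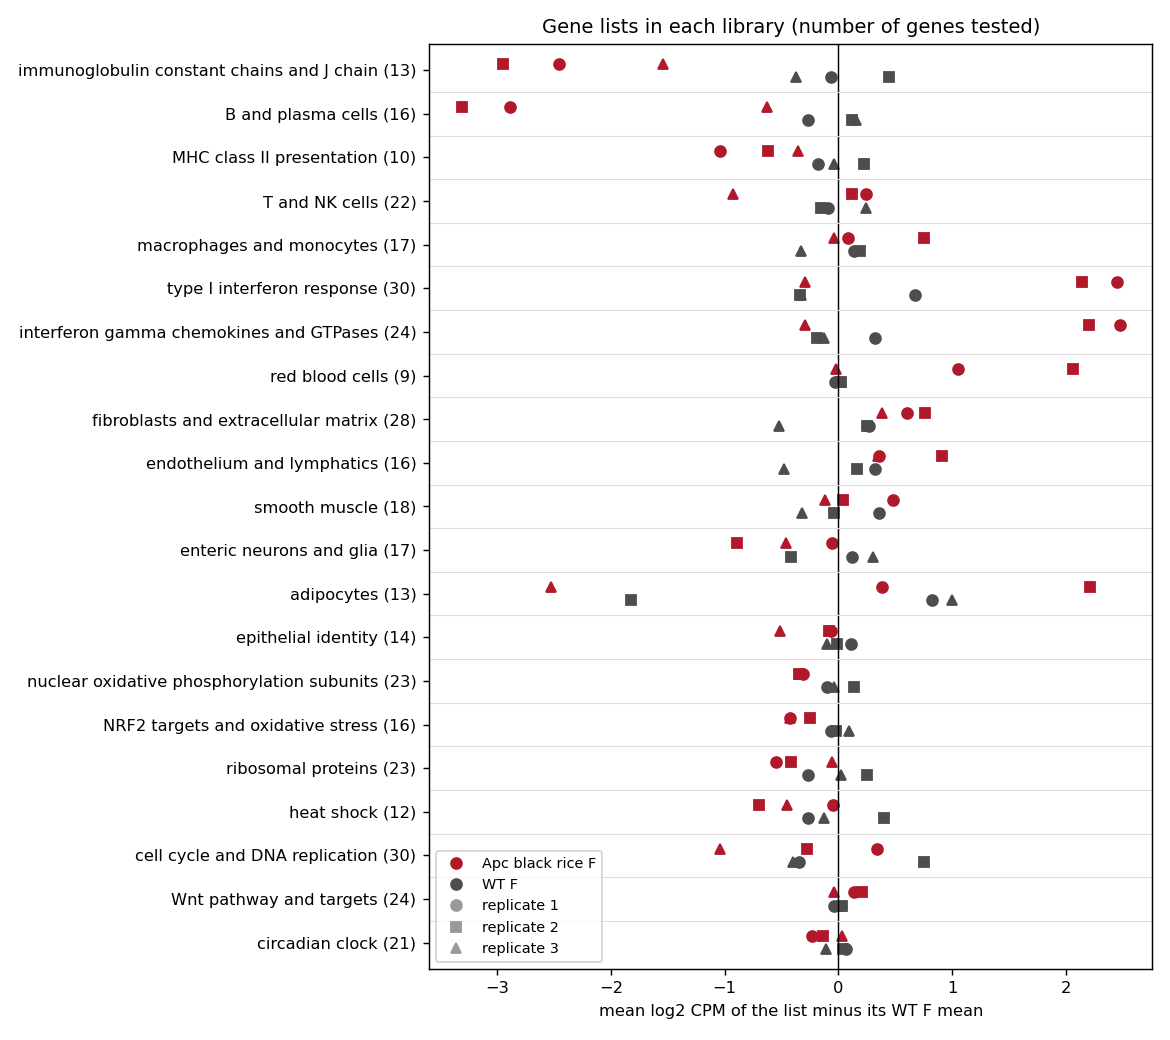
Mean log2 CPM (prior count 2) of each of 21 gene lists minus its mean over the 3 WT F libraries, for each black rice F and WT F library, with the number of genes tested in brackets. Black rice F libraries lie left of all WT F libraries for immunoglobulin, B cell, MHC class II, oxidative phosphorylation and NRF2 lists. Replicates 1 and 2 lie far right of WT for both interferon lists, where replicate 3 does not.

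In the epithelium, identity markers summed to 10800, 11100 and 10200 CPM on black rice and 13400, 13000 and 11400 CPM in WT F libraries. Cdx1, a caudal homeobox factor of intestinal epithelium, measured 157, 162 and 200 CPM on black rice against 205, 298 and 255 CPM in WT F libraries. It was the gene of this list past an unadjusted p of 0.05, with groups apart and a log2 fold change of -0.54 (SE 0.2). Krt19, a simple-epithelium keratin, lay at 1220 to 1270 CPM on black rice and 1450 to 1810 CPM in WT F libraries. Of 22 colonocyte transport genes 0 passed that p. Car2 and Car4, carbonic anhydrases of colonocytes, overlapped, at 494 to 1220 CPM and 529 to 1070 CPM on black rice and 936 to 1450 CPM and 847 to 1400 CPM in WT F libraries.

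Some secreted epithelial products varied widely within the black rice group. Muc2, the gel-forming mucin, measured 13400, 6430 and 2130 CPM on black rice and 2920, 3070 and 4510 CPM in WT F libraries. Retnlb, the goblet cell resistin-like protein, measured 623, 43 and 0.556 CPM on black rice and 86.3, 13.6 and 3.85 CPM in WT F libraries. Ang4, an antimicrobial ribonuclease, measured 510, 9.4 and 3.02 CPM on black rice and 25.1, 25.1 and 8.5 CPM in WT F libraries. In all 3 genes replicate 1 was the highest and replicate 3 the lowest of the black rice F libraries, on both sides of WT. Lcn2, the siderophore-binding lipocalin, was higher without overlap, at 6.75, 5.27 and 7.93 CPM on black rice against 4, 3.08 and 3.18 CPM in WT F libraries (log2 fold change 0.96, SE 0.33). On control diet Lcn2 measured 6.58, 5.53 and 4.29 CPM, also above WT. Il33, an alarmin of barrier and stromal cells, measured 8, 17.6 and 12.4 CPM on black rice against 7.16, 7.66 and 5.68 CPM in WT F libraries, also apart. Its control F levels, 4.82, 8.8 and 7.11 CPM, overlapped WT.

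Enteroendocrine markers had 10 of 17 lower (49.5% of all genes) and a median log2 fold change of -0.2, which turned to 0.21 without WT F replicate 3. Sst, the hormone somatostatin, measured 33.2, 14.7 and 10.5 CPM on black rice against 61.5, 23.6 and 62.6 CPM in WT F libraries, with overlap at 1 library. Tac1, the precursor of substance P, measured 19.9, 7.91 and 12.8 CPM on black rice against 22.8, 18.9 and 25.1 CPM in WT F libraries. On control diet Tac1 measured 14.5, 13.2 and 12.3 CPM, below WT, and Sst, at 57.8, 21.2 and 16.2 CPM, overlapped WT. In black rice F over WT F libraries both had an unadjusted edgeR p under 0.05 (3.52% of all genes). The log2 fold changes were -1.34 for Sst (SE 0.53) and -0.72 for Tac1 (SE 0.29). That count of 2 was 0 without black rice F replicate 2 or WT F replicate 1 or 3, 1 without black rice F replicate 3 and 3 without black rice F replicate 1.

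Nuclear subunits of oxidative phosphorylation lay slightly lower. Of 23 such genes 23 were lower (49.5% of all genes) and 14 had groups without overlap (7.74%). The median log2 fold change was only -0.35, and 5 had an unadjusted p under 0.05 (3.52%). That count was 5 without WT F replicate 3 as well, 2 without black rice F replicate 2, 1 without black rice F replicate 1 or WT F replicate 1, and 0 without black rice F replicate 3 or WT F replicate 2. Cyc1, the cytochrome c1 subunit of complex III, measured 136, 137 and 127 CPM on black rice against 174, 198 and 185 CPM in WT F libraries (log2 fold change -0.48, SE 0.19). Ndufv1, the NADH-binding subunit of complex I, measured 62.3, 70.6 and 66.4 CPM on black rice against 84.2, 94.4 and 72.6 CPM in WT F libraries. Summed over the list, the black rice F libraries held 5950, 6050 and 5990 CPM, all below 7180, 8290 and 7010 CPM in WT F libraries. The 13 genes of the mitochondrial genome overlapped, with a median log2 fold change of -0.24 that turned to 0.16 without WT F replicate 3, and their share of reads was 12.2 to 15% on black rice and 12.4 to 20% in WT F libraries. Got1, the cytosolic aspartate aminotransferase that passes reducing equivalents towards mitochondria, measured 29.3, 27.7 and 34.4 CPM on black rice against 47.5, 55.7 and 47.1 CPM in WT F libraries (log2 fold change -0.72, SE 0.19).

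Ribosomal protein, NRF2 and heat shock genes were also lower. The 23 ribosomal protein genes were all lower by the group fold change (49.5% of all genes), with a median log2 fold change of -0.35. Of them 2 had an unadjusted p under 0.05 (3.52%), a count between 0 and 6 over the fits without 1 library. Rps2, a small subunit protein with many processed copies, measured 272, 313 and 385 CPM on black rice against 392, 565 and 444 CPM in WT F libraries. The 16 NRF2 and oxidative stress genes were all lower (49.5% of all genes), with a median of -0.34. Of these, 6 were without overlap (7.74%) and 1 was past that p (3.52%). Sod2, the mitochondrial superoxide dismutase, was that gene, at 77.6, 85.6 and 97.9 CPM on black rice against 99.9, 111 and 110 CPM in WT F libraries. Hspa8, the constitutive HSC70 chaperone, lay at 1570 to 2210 CPM on black rice and 2260 to 3650 CPM in WT F libraries. Hspa1b, a stress-induced HSP70 with a near-identical neighbour, lay at 10.6 to 17.7 CPM on black rice and 21.4 to 42.5 CPM in WT F libraries. Of 12 heat shock genes 11 were lower (49.5% of all genes), 3 of them at an unadjusted p under 0.05 (3.52%). That count was 6 without black rice F replicate 1, 1 without black rice F replicate 3, and 0 without black rice F replicate 2 or without WT F replicate 2, which had the highest summed level, 6570 CPM. The heat shock median was -0.27, and it was -0.27 as well in control F over WT F libraries, a contrast that shares the WT libraries.

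The Apc transcript measured 181, 189 and 183 CPM on black rice, 136, 126 and 136 CPM in control F libraries and 170, 120 and 120 CPM in WT F libraries. Black rice F libraries lay above WT, with a log2 fold change of 0.43 (SE 0.2). A gene-level count does not show which allele was read, so the level checks no genotype label. Of 24 Wnt pathway genes 1 was higher (6.72% of all genes) and 2 were lower (7.74%) without overlap. Of 13 stem cell genes 1 was higher without overlap. These counts are near the shares of all genes. Lgr5, the R-spondin receptor of intestinal stem cells, measured 24.6, 20.1 and 21.4 CPM on black rice and 14.1, 25.3 and 24.6 CPM in WT F libraries. Axin2, a feedback target of beta-catenin, measured 38.8, 38.6 and 26.8 CPM on black rice and 28.5, 44.1 and 27.4 CPM in WT F libraries, a log2 fold change of 0.06 (SE 0.2). Both overlapped. Dkk2, a secreted Wnt modulator, was apart, and lay at 1.46 to 3.57 CPM on black rice and 0.667 to 1.41 CPM in WT F libraries. Of the Wnt pathway genes 1 was higher (3% of all genes) and 1 lower (3.52%) at an unadjusted p under 0.05, with a median log2 fold change of 0.08. The lower one was Tcf7, given above with the T cell genes.

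Proliferation genes spread across the groups. Mki67, the proliferation antigen Ki-67, measured 323, 157 and 104 CPM on black rice and 148, 273 and 148 CPM in WT F libraries. Black rice F replicate 1 was the highest and replicate 3 the lowest of the 6. Mcm2 and Mcm3, subunits of the replicative helicase, lay at 18.2 to 31.1 CPM and 14 to 25.7 CPM on black rice and at 27.7 to 46.6 CPM and 22.1 to 43.4 CPM in WT F libraries. Of 30 cell cycle genes 26 were lower (49.5% of all genes), 2 of them at an unadjusted p under 0.05 (3.52%). The count of 2 ran between 0 and 10 over the fits without 1 library. The median log2 fold change was -0.34, and it turned to 0.16 without WT F replicate 2.

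Clock genes were mixed. Ciart, a circadian repressor of transcription, measured 3.98, 3.63 and 5 CPM on black rice against 10.6, 10.6 and 6.66 CPM in WT F libraries, and control F libraries held 4.02, 2.3 and 5.38 CPM. Bhlhe41, the clock repressor DEC2, measured 1.66, 1.22 and 2.11 CPM on black rice against 4.43, 3.58 and 3.1 CPM in WT F libraries, and 2.54 to 3.95 CPM on control diet. Rora, a nuclear receptor that activates the clock, measured 17.1, 18.5 and 14.1 CPM on black rice against 12.3, 8.45 and 9.2 CPM in WT F libraries. All 3 were apart from WT, with log2 fold changes of -1.15 (SE 0.32), -1.15 (SE 0.28) and 0.73 (SE 0.21). Usp2, a deubiquitinase under clock control, lay at 25 to 29.5 CPM on black rice and 36.8 to 48.5 CPM in WT F libraries. On control diet Usp2 lay at 24.9 to 30.2 CPM, also below WT, while Rora, at 9.28 to 10.8 CPM, overlapped WT. Of 21 clock genes, 1 was higher (3% of all genes) and 3 were lower (3.52%) on black rice at an unadjusted edgeR p under 0.05, and the median was -0.08. It turned to 0.04 without black rice F replicate 1 and to 0.02 without WT F replicate 2. The labels give no time of day, so its part was not tested.

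Of 9 genes tested of the aryl hydrocarbon receptor list, 2 were higher (6.72% of all genes) and 1 was lower (7.74%) without overlap. Of the 2 higher ones, Arnt is the partner of the receptor and not a target. It lay at 62 to 69 CPM on black rice and at 53.3 to 61.8 CPM in WT F libraries. Ahr, the aryl hydrocarbon receptor, measured 20.1, 21.8 and 25.5 CPM on black rice and 21.3, 19.7 and 18.4 CPM in WT F libraries, with overlap. Its target Cyp1a1 lay at 0.039 to 0.109 CPM on black rice and at 0.0621 to 2.46 CPM in WT F libraries, too low for the test. Tiparp, another target and the other higher gene without overlap, lay at 27 to 32.2 CPM on black rice and 23.4 to 26.5 CPM in WT F libraries (log2 fold change 0.26, SE 0.14). Of the 9 genes of this list 0 passed an unadjusted edgeR p of 0.05, and 1 passed it without black rice F replicate 3 or WT F replicate 1. The median log2 fold change of 24 cholesterol genes was -0.25, while the median of control F over WT F libraries was 0.38. Of the 24 genes 23 were lower (49.5% of all genes), 1 at that p (3.52%). That gene was Dhcr7, the last enzyme of cholesterol synthesis, at 58.9, 56.5 and 55.5 CPM on black rice against 68.5, 84.7 and 68.5 CPM in WT F libraries. Bdh1, the ketone body dehydrogenase of mitochondria, lay at 92.9 to 105 CPM on black rice and at 97.8 to 155 CPM in WT F libraries.

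A few genes outside these lists had small p and groups apart. Basp1, a membrane-bound cytoskeletal regulator, measured 6.03, 5.78 and 7.25 CPM on black rice against 10.9, 11.8 and 13.3 CPM in WT F libraries (log2 fold change -0.92, SE 0.22). Casp12, an inflammatory-type caspase, measured 22.7, 22.9 and 14.4 CPM on black rice against 12.7, 10.5 and 12.2 CPM in WT F libraries. Pkhd1l1, a large membrane receptor-like protein, measured 9.01, 8.87 and 4.84 CPM on black rice against 3.37, 3.13 and 3.2 CPM in WT F libraries (log2 fold change 1.23, SE 0.31). Med29, a subunit of Mediator, lay lower, at 9.38 to 11.1 CPM on black rice and 12.9 to 16.4 CPM in WT F libraries. The non-coding AI662270 lay at 1.98 to 2.46 CPM on black rice and at 3.84 to 5.16 CPM in WT F libraries.

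Whether the black rice against WT difference depended on the sex code was tested as the F difference minus the M difference. edgeR called 0 of 21624 genes (0%), with a smallest adjusted p of 0.32, and 685 genes (3.17%) had an unadjusted p under 0.05. DESeq2 called 13. Slc29a4, a plasma membrane monoamine transporter, had the smallest p. It measured 3.88, 3.21 and 2.28 CPM in black rice F libraries against 2.78, 3.23 and 5.25 CPM in WT F libraries. In the M code it measured 14.1, 12.2 and 20.2 CPM on black rice against 2.5, 2.87 and 3.8 CPM in WT libraries. The groups overlapped in F and were far apart in M, and the difference of log2 fold changes was -2.61 (SE 0.42, edgeR adjusted p = 0.32). Cbr3, a carbonyl reductase, measured 4.35, 7.2 and 11.4 CPM in black rice F libraries against 18.7, 17.3 and 13.6 CPM in WT F libraries. In the M code it measured 30, 21.3 and 24.7 CPM on black rice against 13.7, 17.3 and 10.8 CPM in WT libraries, so its order was opposite in the codes. P2ry12, an ADP receptor, was opposite as well, at 2.97 to 3.68 CPM on black rice against 1.97 to 2.64 CPM in WT F libraries, and at 1.49 to 2.42 CPM on black rice against 3.35 to 5.49 CPM in WT M libraries. Pnliprp2, a lipase of the pancreatic family, lay at 1.42 to 7.76 CPM on black rice against 1.01 to 1.88 CPM in WT F libraries, and at 47.2 to 282 CPM on black rice against 3.39 to 5.17 CPM in WT M libraries. Trat1, a T cell receptor associated adaptor, lay at 0.292 to 0.468 CPM on black rice against 0.505 to 1.27 CPM in WT F libraries, and at 1.33 to 5.82 CPM on black rice against 0.136 to 0.579 CPM in WT M libraries. For these genes the adjusted p of the difference was between 0.32 and 1.

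Igha in the M code measured 1690, 2400 and 1670 CPM on black rice against 3240, 4020 and 1710 CPM in WT libraries, a log2 fold change of -0.64 beside -1.97 in F. The difference between the codes was -1.34 (SE 0.62, edgeR adjusted p = 1). Prg2 was lower on black rice in both codes, at 0.469, 0.521 and 0.533 CPM on black rice against 1.26, 1.27 and 1.01 CPM in WT M libraries. Its log2 fold changes were -1.54 in F and -1.21 in M, and its difference between codes was -0.33 (SE 0.4, edgeR adjusted p = 1). The type I interferon list had medians of 1.43 in F and 0.3 in M, and 2 of its 30 genes had a higher difference in F at an unadjusted edgeR p under 0.05 (1.56% of all genes). The B and plasma cell list had medians of -1.69 in F and 0.59 in M, and 5 of its 16 genes had a lower difference in F at that p (1.61%). The interferon gamma list had medians of 1.7 in F and 0.91 in M, and 0 of its 24 genes had an unadjusted p under 0.05 for the difference. The matrix list had medians of 0.47 in F and 0.17 in M, and 4 of its 28 genes had a higher difference in F at that p (1.56% of all genes). Of the 13 immunoglobulin constant and J chain genes 5 had a lower one (1.61%).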

How the data were processed

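The authors deposited raw counts, whole numbers per gene and library, for the 18 libraries of the Apc set. Per the labels, RNA was extracted with Trizol, captured with oligo(dT) and sequenced on DNBSEQ. The submitters' processing notes name GRCm39 and, with no versions, HISAT2, featureCounts, Subread, SAMtools, fastp and FastQC. The table's header gives no command, so whether counting used strand is not given in the sources used here. A symbol was found for 52083 of 55416 gene IDs. The 20 libraries of the other tables were not used.

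All 18 libraries were fitted in 6 groups with edgeR 4.0.16 in R 4.3.3, with filterByExpr (21624 genes left), TMM factors, two-sided quasi-likelihood tests and Benjamini-Hochberg adjustment over all genes tested. SE is the log2 fold change divided by the root of F. Alternatives were DESeq2 1.42.0, limma-voom 3.58.1 with quality weights, RLE factors, other filters, the compared groups alone, a replicate block, a smooth muscle covariate and each library left out. The procedure was tested on simulated data.

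The members and the 49 gene lists were chosen with earlier results of these data known. Named genes are the 10 smallest p in each direction at a mean log2 CPM of 0 or more, up to 4 genes per list by p, the 5 smallest p of the difference between codes, and Apc, Xist, Prg2, Pnliprp2, Mki67, Lgr5, Axin2, Cyp1a1 and Ahr. Predicted genes, pseudogenes and receptor segments were left out except in the lists. Pigr, Ighm, Ms4a1, Mef2b, Ighv1-72, Ifit1, Hoxb6 and Cdx2 were chosen after their values were seen. No 2 libraries of a group held identical counts.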

Additional observations from a re-analysis of the deposited data

How the results depend on the processing

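The count of genes called for black rice F against WT F libraries was 0 in edgeR and 42 in DESeq2, and for the difference between sex codes it was 0 in edgeR and 13 in DESeq2. Both were 0 with limma-voom, RLE factors, either filter, the compared groups alone, the smooth muscle covariate and every library left out (lowest 0, highest 0). At an unadjusted p under 0.05 the first count was 1411 and 2298 with limma-voom, and over the fits without 1 library it ran from 701 without black rice F replicate 2 to 1972 without WT F replicate 1. Of the 42 genes, 21 are among the 126 followed through all alternatives. Igha (adjusted p = 0.0063 in DESeq2 and up to 1 in the others), Derl3, Jchain, Nuggc, Prg2, Gbp7 and Lox were called by DESeq2 only. The cause of the gap between the tools was not tested.

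Same-numbered black rice and WT libraries deviated with correlations of 0.07, -0.27 and -0.15, and unlike-numbered ones with correlations from -0.22 to 0.32. With 3 libraries per group these values cannot show whether the numbers pair libraries. With a replicate block the count called was 0, with 1419 genes at an unadjusted p under 0.05.

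Of these 126 genes, 116 kept their sign in every alternative. The others were far from the threshold. With the block Hoxd13 was -0.5, Hoxb6 -0.8, Cdx2 -0.35 and Mki67 -0.03. With limma-voom Hoxd13 was -0.72 and Cdx2 -0.16, and with the covariate Cdx2 was -0.25 and Mki67 -0.07. Over the fits that left out 1 library the log2 fold change ran from lowest to highest as follows: Ang4 from -1.65 to 3.72, Axin2 from -0.07 to 0.31, Cdx2 from -0.44 to 0.59, Hoxb6 from -0.55 to 1.23, Hoxd13 from -0.04 to 2.17, Lgr5 from -0.18 to 0.19, Mki67 from -0.54 to 0.39, Plin1 from -1.24 to 1.77, Retnlb from -0.66 to 4.66 and Slc29a4 from -0.44 to 0.05.

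Counting error at 48 to 58.7 M reads is small beside the spread between libraries for abundant genes. For genes of low level, such as Prg2 and Nuggc on black rice, it can match or exceed that spread. Genotype and diet differ together here, and time of day, position along the gut and animal identity are not in the labels.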
